A study of Mus musculus with 4 samples.

Results

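The MHC class II genes described here are H2-Aa, H2-Ab1, H2-Eb1, Cd74, Ciita, H2-DMa and H2-DMb1. They were taken by symbol from the gene list of the deposited count matrices, and all 7 were found among its 32285 genes. The data are 4 single-cell libraries, 1 per group, of mouse bone marrow cells that carried CD45.2 and Kit (CD117) and were taken 10 weeks after transplantation. One group is the control, and the others are labelled as deleted for Mll3, for Mll4 or for both (Mll3/4). Mll3 (Kmt2c) and Mll4 (Kmt2d) are histone methyltransferases that act at enhancers. The labels give no Cre driver, strain, age or number of animals, and all 4 groups share the transplantation and the Kit selection. With 1 library per group no test between groups is possible, so every interval below is an exact 95% interval of counting error only, and no p-value is given.

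MHC class II molecules are pairs of an alpha and a beta chain that hold peptides on the cell surface and show them to CD4 T cells. H2-Aa and H2-Ab1 encode the alpha and the beta chain of I-A, and H2-Eb1 encodes the beta chain of I-E. Cd74, the invariant chain, fills the groove of a new pair and takes it to the endosome. There the H2-DM pair, H2-DMa with an H2-DMb chain, exchanges the last piece of Cd74 for a peptide. Ciita is the coactivator that switches the set on, and it does so by joining factors already bound to the X and Y boxes of the promoters. High levels are typical of dendritic cells, B cells and activated macrophages, and interferon gamma can induce the set in other cells.

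The promoters of H2-Aa and H2-Eb1 are shown because they carry boxes of the kind through which Ciita acts, and because both genes moved together in the results. Each stretch holds the 120 bases before the RefSeq gene start in GRCm38.p6, read 5′ to 3′ on the gene's strand, with matched motifs in capitals.
H2-Aa, chr17:34287824-34287943, minus strand: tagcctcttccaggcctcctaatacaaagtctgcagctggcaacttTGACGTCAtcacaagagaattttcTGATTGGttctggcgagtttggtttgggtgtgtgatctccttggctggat
H2-Eb1, chr17:34305747-34305866, plus strand: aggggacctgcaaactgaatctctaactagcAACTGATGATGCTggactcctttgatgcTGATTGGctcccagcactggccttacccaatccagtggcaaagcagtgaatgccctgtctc
The letters TGATTGG are the core of the Y box, searched on both strands and present in 7.23% of 32851 promoter windows of 250 bases. The first base of the match lay 50 bases before the start in H2-Aa, 61 in H2-Eb1 and 63 in H2-DMb1. The other capitals of H2-Eb1, AACTGATGATGCT, are the longest run of letters that its window shares with that of H2-DMb1, where it began 92 bases before the start. No other window held that run, so it was present in 0.00609% of windows. It was defined from these 2 windows and is long, so this share follows from the choice and does not compare with that of the Y box. The letters TGACGTCA in H2-Aa, a cyclic AMP response element, were present in 1.55% of windows. These motifs were chosen after the sequences had been read, and neither H2-DMa window held any of the 3. Promoter windows were matched for 4 of the 7 genes, leaving out H2-Ab1, Cd74 and Ciita.

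In the GENCODE annotation of GRCm38, 5 of the genes lie together on chromosome 17. H2-DMa spans 34119541 to 34139101, H2-DMb1 34153072 to 34160230, H2-Ab1 34257689 to 34269419 and H2-Eb1 34305867 to 34316674, all on the plus strand. H2-Aa, from 34282744 to 34287823, is on the minus strand. Ciita lies on chromosome 16 from 10480059 to 10528418 and Cd74 on chromosome 18 from 60803848 to 60812652, both on the plus strand. Annotated genes on the opposite strand overlap H2-DMa (Brd2 among them), Ciita (Dexi) and H2-Eb1 (Gm20513). On its own strand H2-DMa overlaps CR974462.3. H2-DMb1 has a near-identical neighbour, H2-DMb2. The counts of these 4 members may be less certain, and how far the overlaps touch them was not tested.

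The libraries differed in ways that touch each comparison. Between 5350 and 7146 cells were kept per library, with a median of 5142 UMIs (unique molecules) per cell in the Mll4-labelled library against 9965 to 16963.5 elsewhere. Xist, expressed from the inactive X chromosome of female cells, stood at 0.519 CPM in the Mll4-labelled library and at 955 to 1839 CPM elsewhere, so sex and deletion cannot be told apart. CPM is the gene's share of all UMIs of the cells named, scaled to 1000000. Kmt2d stood at 25.8 CPM in control and, in the library labelled as deleted for it, at 25 CPM. These reads come from the 3′ end, which need not lie in the deleted part, so they do not check the label. Between 42 and 60 barcodes of a library also occurred in another.

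Of the class II chains, H2-Aa stood at 3.86 CPM (3.56 to 4.18) in control. The deleted libraries, in the order Mll3, Mll4 and Mll3/4 that is kept below, had 5.93 (5.53 to 6.35), 97.0 (93.7 to 100.4) and 4.16 CPM (3.72 to 4.64). H2-Eb1 stood at 2.61 CPM in control and at 4.10, 96.7 and 4.20 CPM in the deleted libraries. The Mll4-labelled library thus stood apart for both, 25.1-fold above control for H2-Aa and 37.1-fold (33.4 to 41.2) for H2-Eb1. H2-Ab1 followed another order, with 26.0 CPM in control and 28.4, 123.6 and 176.7 CPM in the deleted libraries. It was the only chain that was highest in the Mll3/4-labelled library, 6.80-fold above control, and it was 4.76-fold higher in the Mll4-labelled one.

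Cd74, the invariant chain, stood at 5.02 CPM in control and at 14.4, 175.5 and 8.38 CPM in the deleted libraries, 35.0-fold (32.4 to 37.7) above control with the Mll4 label. Ciita was scarce everywhere, with 61 counts in control and 49, 168 and 26 in the deleted libraries, or 0.397, 0.360, 5.13 and 0.335 CPM. Its ratio to control was 12.9 (9.58 to 17.6) with the Mll4 label. The peptide exchange genes did not share this pattern. H2-DMa was the most abundant member of control, at 58.0 CPM, and stood at 47.5, 41.2 and 61.2 CPM in the deleted libraries. H2-DMb1 stood at 12.8 CPM in control and at 11.2, 20.3 and 4.26 CPM, or 1.59-fold with the Mll4 label and 0.332-fold with the Mll3/4 label.

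A gene was counted as past 2-fold when it also had at least 20 counts in either library. Of 7 members 5 were higher with the Mll4 label than in control and 0 lower, where 9.67% of all genes tested were higher and 8.68% lower. The member median was 3.69 on the log2 scale, against 0.025 over all genes tested. With the Mll3 label 1 of 7, Cd74, was higher and 0 lower (1.57% and 3.4% of all genes). With the Mll3/4 label 1 of 7, H2-Ab1, was higher and 1, H2-DMb1, lower (19.8% and 19.5% of all genes).

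The size of the rise depended on how doublets, droplets with 2 cells, were handled. The kept cells exclude the barcodes with the highest simulated-doublet score. With those left in, H2-Aa stood at 13.9 CPM in control and at 13, 99.3 and 3.85 CPM in the deleted libraries. Control and the Mll3-labelled library then lay close together. The Mll4-labelled library was 7.16-fold above control for H2-Aa, 3.39-fold for H2-Ab1, 10.1-fold for H2-Eb1, 8-fold for Cd74 and 6.91-fold for Ciita. Cd74 went from 2.86-fold to 1.18-fold with the Mll3 label. Past 2-fold were 5 members higher and 0 lower with the Mll4 label (9.7% and 9.29% of all genes), 0 and 0 with the Mll3 label (1.56% and 3.57%), and 1 higher and 5 lower with the Mll3/4 label (19.7% and 19.8%).

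**Figure D1:**
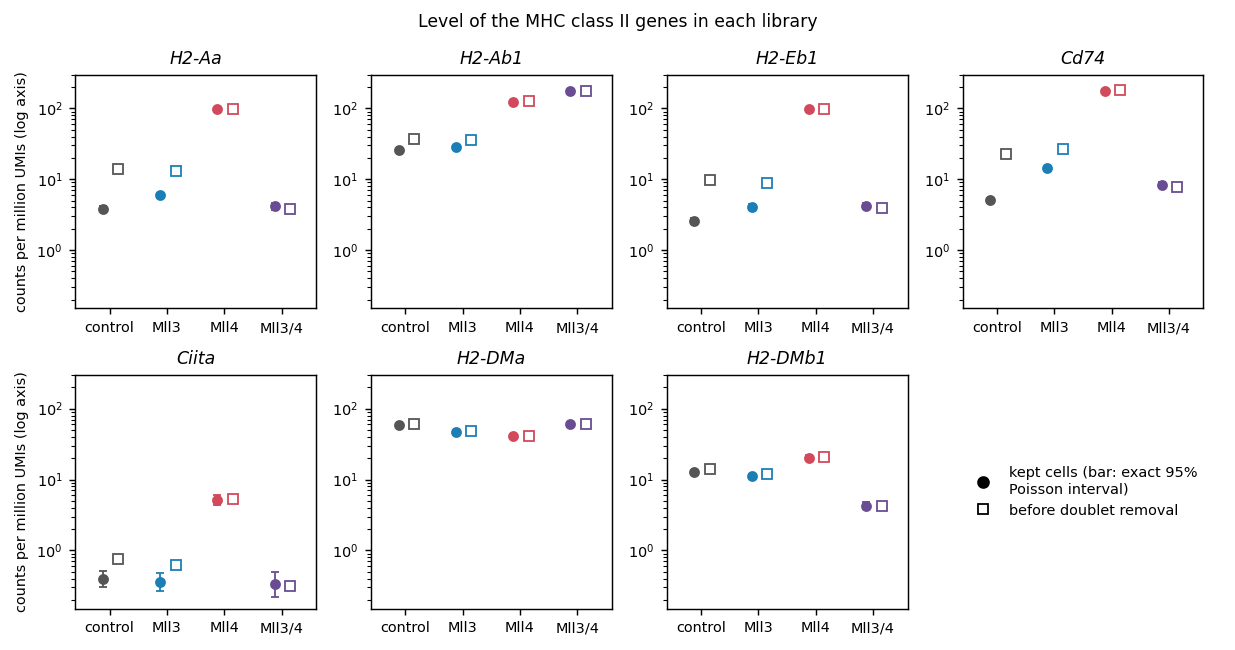
CPM (log axis) of each member in the 4 libraries, for the kept cells (filled points with exact Poisson intervals) and before doublet removal (open squares). H2-Aa, H2-Eb1, Cd74 and Ciita are highest with the Mll4 label under both, H2-Ab1 is highest with the Mll3/4 label, and the open squares of control lie above its filled points.

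Each library had been stained with 2 hashtag antibodies, whose meaning is not stated in the labels. The rise with the Mll4 label lay mostly in cells of 1 of them. Among cells positive for hashtag 1 alone, H2-Aa stood at 3.98 CPM in control and at 6.22, 20.8 and 0.556 CPM in the deleted libraries. Among cells positive for hashtag 2 alone it stood at 3.72 CPM in control and at 5.52, 201 and 8.17 CPM. The hashtags of control and of the Mll3-labelled library lay close together, while those of the Mll4- and Mll3/4-labelled libraries lay far apart, with hashtag 2 higher in both. In the latter 2 hashtag 2 cells held 224 of the 323 H2-Aa counts of the whole library.

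Cd74, H2-Eb1, H2-Ab1 and Ciita of the Mll4-labelled library also had higher ratios in hashtag 2 than in hashtag 1 cells. Cd74 stood at 34.4 CPM in its hashtag 1 and 366 CPM in its hashtag 2 cells, 6.80-fold and 78.3-fold above control cells of the same hashtag. H2-Eb1 was 7.69-fold and 77.5-fold higher, and H2-Ab1 1.53-fold and 9.13-fold. Ciita was 1.62-fold (0.810 to 3.07) and 38.0-fold (24.2 to 62.5) higher, so that its difference in hashtag 1 cells was within counting error. H2-DMb1 was 1.29-fold and 2.06-fold above control, and H2-DMa was below it in both, at 0.640-fold and 0.848-fold. Past 2-fold were 3 of 7 members higher and 0 lower in hashtag 1 cells (6.7% and 6.23% of all genes), and 6 of 7 higher and 0 lower in hashtag 2 cells (11.3% and 10.5%).

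Leaving the doublet-scored cells in lowered the ratios of both hashtags. Then H2-Aa of hashtag 1 cells with the Mll4 label stood at 24.8 against 13.9 CPM in control, 1.79-fold, and Ciita at 0.917-fold (0.489 to 1.61). In hashtag 2 cells the same comparison gave 201 against 11.7 CPM, 17.1-fold, and 17.8-fold for Ciita. The difference between the hashtags was thus present with and without the removal.

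H2-Ab1 of the Mll3/4-labelled library did not share the split, with 182 CPM in hashtag 1 and 172 CPM in hashtag 2 cells. There H2-Aa, H2-Eb1, Cd74 and Ciita were below control in hashtag 1 cells, at 0.139-fold, 0.305-fold, 0.289-fold and 0.201-fold. In hashtag 2 cells they were above it, at 2.20-fold, 3.15-fold, 3.51-fold and 2.15-fold, but this rested on 2 cells of clusters with dendritic markers. Without those clusters these genes were below control in hashtag 2 cells too, at 0.489-fold, 0.513-fold, 0.772-fold and 0.196-fold. Before doublet removal they were also below it, at 0.667-fold, 0.867-fold, 0.829-fold and 0.965-fold. Of 7 members 1 was higher and 5 lower with hashtag 1 (18.5% and 19.1% of all genes), and 5 higher and 1 lower with hashtag 2 (18.3% and 19.3%). With the Mll3 label 1 was higher and 0 lower with either hashtag, where 1.34% and 5.66% of all genes were higher and lower with hashtag 1 and 1.24% and 2.18% with hashtag 2. Which animals or stainings the hashtags stand for was not tested.

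**Figure D2:**
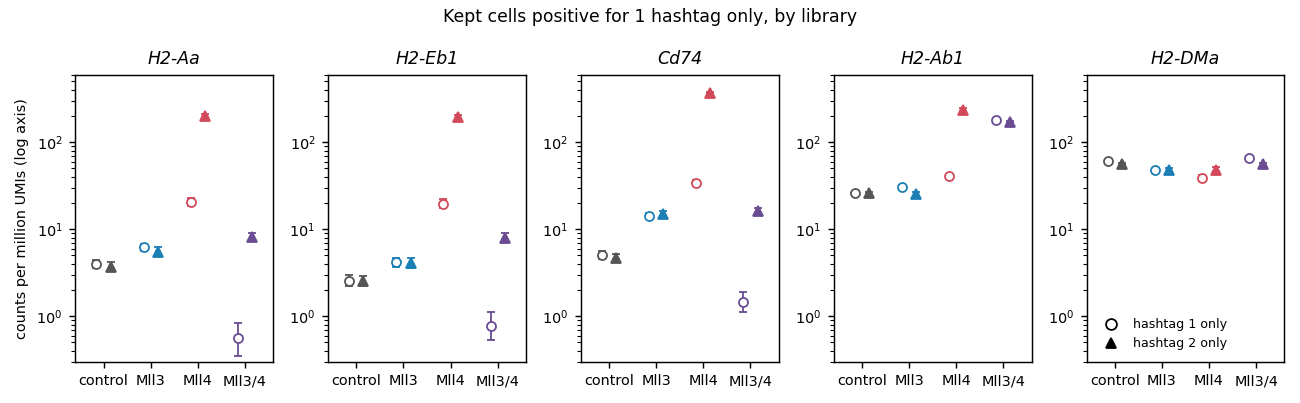
CPM (log axis, exact Poisson intervals) of 5 members in kept cells positive for hashtag 1 alone (open circles) or hashtag 2 alone (triangles), by library. With the Mll4 label the triangles lie well above the circles for all members drawn except H2-DMa, while both hashtags of control sit together.

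The cells that carried the rise were few. Clustering left out the 7 members and 4 other class II genes, and it gave 2 clusters with markers of conventional dendritic cells among their leading genes. Cluster 25 was led by Xcr1, Naaa, Clec9a and Tlr3, genes of the cross-presenting kind of dendritic cell, and was named conventional dendritic-like. Cluster 24 was led by Cxcl9, Cd209a, Ctss and Klrd1 and stayed unnamed. Of the 12 conventional dendritic markers, 9 were detected in the Mll4-labelled cells of cluster 25, at a summed 4666 CPM, with Ccr7, Clec10a and Mgl2 at 0. In those of cluster 24, 11 of 12 were detected at 1139 CPM, with Xcr1 at 0, beside 8 of 9 monocyte progenitor markers at 2358 CPM. Cluster 25 also held some monocyte progenitor markers. There Ccr2 stood at 1394 CPM and Ms4a6c at 201 CPM, against 696 and 1005 CPM in cluster 24, while Csf1r and Fn1 were at 0. The library's cells outside both clusters had 51 and 75.6 CPM. Klf4 was also higher in both clusters, but Ly6c2 and F13a1 were not. Ly6c2 stood at 114 and 40.3 CPM in clusters 24 and 25, against 475 CPM outside. F13a1 stood at 114 and 8.06 CPM, against 119 CPM. The plasmacytoid dendritic markers Siglech, Bst2 and Tcf4 stood at 23.8, 138 and 157 CPM in cluster 24, against 0, 56.8 and 66 CPM outside. Ly6d and Klk1 were at 0 there. Mature B markers were nearly absent, with 4 of 9 detected at 61.9 CPM in cluster 24 and 2 of 9 at 16.1 CPM in cluster 25.

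Clusters 24 and 25 together held 1 kept cell of control and 7, 107 and 2 cells of the deleted libraries. The 107 cells were 2% (1.64 to 2.41) of the kept cells with the Mll4 label. Of them 14 were positive for hashtag 1 alone, 89 for hashtag 2 alone and 4 for both. Before doublet removal the numbers were 22 cells in control, or 0.283% (0.178 to 0.429), and 21, 122 and 2 cells in the deleted libraries, or 0.331% (0.205 to 0.506), 2.16% (1.80 to 2.57) and 0.027%. The hashtags then held 10 cells each in control, and 19 and 95 cells with the Mll4 label, 0.683% and 3.82% of the cells of each hashtag. The cells before removal were clustered anew, and there these cells formed 1 cluster with dendritic markers. A cluster that is mostly of 1 library may be that library and not a type, and control had 22 such cells without the removal and 1 with it.

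The 107 cells held 88.0% of all H2-Aa counts of the Mll4-labelled library, 75.7% of H2-Ab1, 85.5% of H2-Eb1, 91.0% of Cd74 and 88.1% of Ciita. They held far less of the peptide exchange genes, 21.2% of H2-DMa and 22.3% of H2-DMb1. H2-Aa, H2-Ab1, H2-Eb1 and Cd74 are summed as the 4 core genes below, and 92.5% of the CPM difference of that sum to control lay in these clusters. Within the 107 cells H2-Aa reached 8378 CPM, H2-Ab1 9183 CPM, H2-Eb1 8117 CPM, Cd74 15669 CPM and Ciita 443 CPM. H2-Aa was detected in 95.3% of them.

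The level in such a cell differed much less between libraries than the number of such cells. Before doublet removal H2-Aa stood at 6341 CPM in the 22 cells of control, and at 4954 and 7000 CPM in the 21 and 122 cells with the Mll3 and Mll4 labels. Cd74 stood at 10761 CPM in control and at 8310 and 13090 CPM. H2-DMa stood at 776 CPM in control and at 572 and 717 CPM. The 22 cells held 63.7% of the H2-Aa and 66.4% of the Cd74 counts of control. With the Mll3/4 label 2 cells, both positive for hashtag 2 alone, held 68.5% of the H2-Aa and 72.0% of the H2-Eb1 counts before removal.

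**Figure D3:**
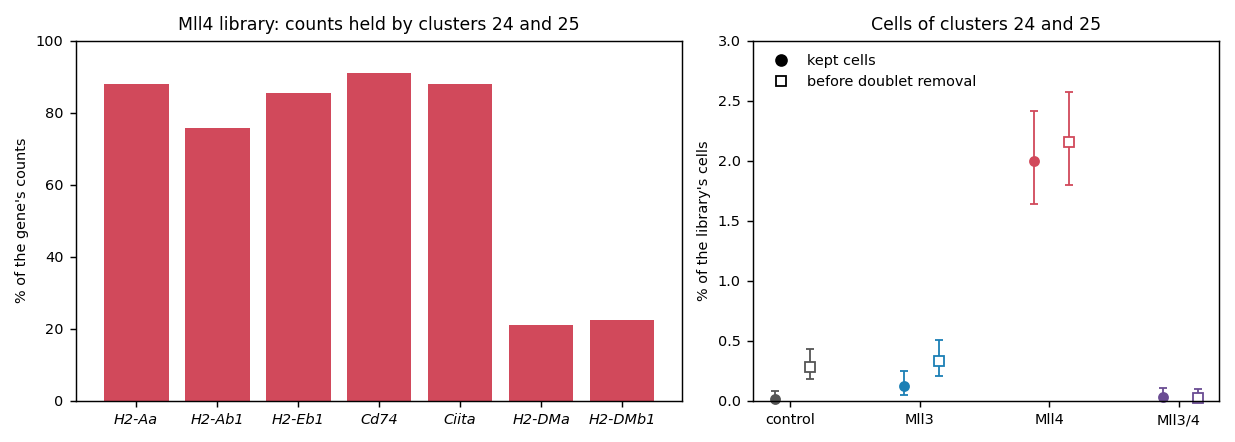
Left, share of each member's counts in the Mll4-labelled library held by the 107 cells of clusters 24 and 25. Right, those clusters as a share of the cells of each library, kept (circles) and before doublet removal (squares, the 1 matching cluster of that clustering), with exact binomial intervals. H2-DMa and H2-DMb1 stand at 21.2% and 22.3%, the other members between 75.7% and 91.0%, and the cell share is highest with the Mll4 label under both.

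Surface antibodies were counted on the same cells. The median count of CD117, the marker by which cells had been selected, was 62.5 in cluster 24 and 95 in cluster 25 with the Mll4 label, against 107 in the other cells of that library that were not class II high. A Kit UMI was found in 35 of 72 and in 21 of 35 of these cells. CD11b, an integrin of myeloid cells, had a median of 185.5 in cluster 24 and 35 in cluster 25, and CD48 medians were 1500 and 2587. The 2 clusters thus differed on the surface as well as in their leading genes.

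Without clusters 24 and 25 a smaller difference remained with the Mll4 label. H2-Aa was 3.05-fold (2.67 to 3.47), H2-Eb1 5.42-fold and Cd74 3.19-fold above control, and H2-Ab1 1.17-fold. Ciita was 1.55-fold higher (0.887 to 2.61), within counting error. The remainder again lay mostly in hashtag 2 cells, where H2-Aa was 5.22-fold above control, against 1.67-fold in hashtag 1 cells. Of 7 members 4 were past 2-fold higher and 0 lower in hashtag 2 cells (10.6% and 10.9% of all genes). In hashtag 1 cells 1, H2-Eb1, was higher and 1, Ciita, lower (6.61% and 6.34%).

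Cells rich in class II were also counted one by one. Each cell was thinned to 2000 UMIs, and a cell with at least 4 UMIs of the core genes, at least 1 of them from a chain gene, was called class II high. Control had 24 such cells of 7050, or 0.340%. The deleted libraries had 47 of 5685 (0.827%), 135 of 5103 (2.65%) and 21 of 6833 (0.307%). Before doublet removal control had 55 of 7623 (0.722%) and the Mll4-labelled library 152 of 5392 (2.82%), so the ratio of these shares went from 7.77 to 3.91 (2.85 to 5.42). By hashtag, 15 of 2618 cells (0.573%) and 115 of 2238 cells (5.14%) were class II high with the Mll4 label, against 13 of 3552 (0.366%) and 10 of 3350 (0.299%) in control.

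The kept class II high cells were of different classes in each library. In control 17 of 24 were HSC/MPP-like, the class of hematopoietic stem cells and multipotent progenitors, named from markers such as Hlf, Mecom and Procr, and 5 were mature B-like. With the Mll3 label 30 of 47 were mature B-like and 12 HSC/MPP-like. With the Mll4 label 61 of 135 were in cluster 24, 32 in cluster 25 and 33 HSC/MPP-like. With the Mll3/4 label 18 of 21 were B-cell progenitor-like. The makeup of control turned on the doublet removal. Before it, 20 of 55 class II high cells of control were in the cluster with dendritic markers, all of them removed by the score, and 17 were HSC/MPP-like. That cluster then held 18 of 64 with the Mll3 label and 106 of 152 with the Mll4 label. The doublet score had removed 31 class II high cells of control, of which 9 held Xcr1 and 5 Cd209a. Both hashtags were found on 9.68% of these 31, against 29.5% of the other removed cells of control and 1.57% of its kept cells that were not class II high, and their median UMI count was 8144 against 25543 in the other removed cells. Of the 17 class II high cells removed from each of the Mll3- and Mll4-labelled libraries, 41.2% and 29.4% held both hashtags.

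Outside clusters 24 and 25 and the B lineage, most kept class II high cells were HSC/MPP-like. Before doublet removal the Mll4-labelled library had 46 such cells outside the dendritic cluster, of which 21 were HSC/MPP-like and 16 megakaryocyte-like. Among kept cells the numbers were 33 and 4, and the score had removed 0 of the 21 and 0 of the 16. The split between these classes thus changed when the cells were clustered anew. In HSC/MPP-like cells H2-Aa stood at 19.5 CPM in control (1451 cells), and at 19.7 and 56.0 CPM with the Mll3 and Mll4 labels (1039 and 506 cells). H2-Eb1 stood at 12.7 CPM in control and at 10.4 and 74.0 CPM, and Cd74 at 23.1, 21.7 and 76.0 CPM. Control and the Mll3-labelled library lay close together in these 3 genes, and the Mll4-labelled library stood above both. H2-Ab1 stood at 56.8 CPM in control and at 47.9 and 115 CPM. H2-DMa, at 174 CPM in control and 137 and 130 CPM, was higher in control here than in any other class of at least 50 control cells. With the Mll4 label 5 of 7 members were past 2-fold higher and 0 lower (5.63% and 4.49% of all genes), though the Ciita ratio of 2.08 had an interval of 0.920 to 4.30. With the Mll3 label 0 of 7 were past 2-fold in either direction (1.05% and 1.98%).

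The HSC/MPP-like difference also depended on the hashtag. The 4 core genes stood at 110 and 115 CPM in hashtag 1 and hashtag 2 cells of control, and at 155 and 626 CPM with the Mll4 label (325 and 173 cells). H2-Aa was 1.22-fold (0.859 to 1.69) and 5.84-fold (4.62 to 7.35) above control, and H2-Eb1 2.85-fold and 10.9-fold. H2-DMa was below control in both, at 0.734-fold and 0.757-fold. Of 6 members tested 1 was past 2-fold higher and 0 lower with hashtag 1 (5.41% and 4.27% of all genes), and 4 higher and 0 lower with hashtag 2 (6.94% and 5.41%).

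The class II high HSC/MPP-like cells had few dendritic markers. In the 33 such cells with the Mll4 label, 3 of the 12 conventional dendritic markers were detected at a summed 83.3 CPM, with Xcr1, Clec9a, Cd209a and Zbtb46 at 0. The other HSC/MPP-like cells of that library stood at 75.5 CPM. Their HSC/MPP markers summed to 1827 CPM, against 1468 CPM in the others. With class II high cells left out of both libraries, the 4 core genes were 1.79-fold (1.62 to 1.98) above control in this class.

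Within HSC/MPP-like cells, class II was highest in the cells with most Sca1 antibody and in those with least CD48. The cells of each library were ranked by an antibody count and put in 4 bins of equal size, a split added after the data had been seen. From the lowest to the highest bin of Sca1, a marker of stem cells and multipotent progenitors, the 4 core genes stood at 43.6, 63.4, 110 and 266 CPM in control. The Mll3-labelled library gave 43.9, 46.7, 72.8 and 269 CPM, and the Mll4-labelled one 65.6, 83.7, 241 and 1052 CPM. Sca1 and class II thus rose together in all 3, and the Mll4-labelled library lay above the others most in the top bin. The bins pool the hashtags, and with the Mll4 label 4 of 320 hashtag 1 and 29 of 171 hashtag 2 cells were class II high. For that library the antibody order and the hashtag therefore cannot be told apart in these bins. Among class II high HSC/MPP-like cells, 16 of 17 in control, 11 of 12 with the Mll3 label and 29 of 33 with the Mll4 label lay in that bin.

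CD48, which is low on long-term stem cells, gave the opposite order. The lowest bin stood at 260 CPM in control and at 265 and 993 CPM with the Mll3 and Mll4 labels, and the highest at 64.6, 48.0 and 127 CPM. CD150, a marker of long-term stem cells, rose with class II, from 93.5 CPM in the lowest bin to 181 CPM in the highest in control and from 183 to 621 CPM with the Mll4 label. The antibodies were binned separately, so no joint stem cell surface was read. In class II high HSC/MPP-like cells the median CD150, CD201 and CD34 counts were 22, 21 and 19 in control. They were 106, 47.5 and 20.5 with the Mll3 label, and 7, 5 and 50 with the Mll4 label. The other HSC/MPP-like cells with the Mll4 label had 4, 4 and 47. H2-DMa did not follow Sca1, with 177 CPM in the lowest and 165 CPM in the highest bin of control. The median Sca1 count of HSC/MPP-like cells was 18 in hashtag 1 and 28 in hashtag 2 cells with the Mll4 label, against 35 and 33 in control. Their median CD48 count was 959 and 617 with the Mll4 label, against 750 and 749 in control.

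**Figure D4:**
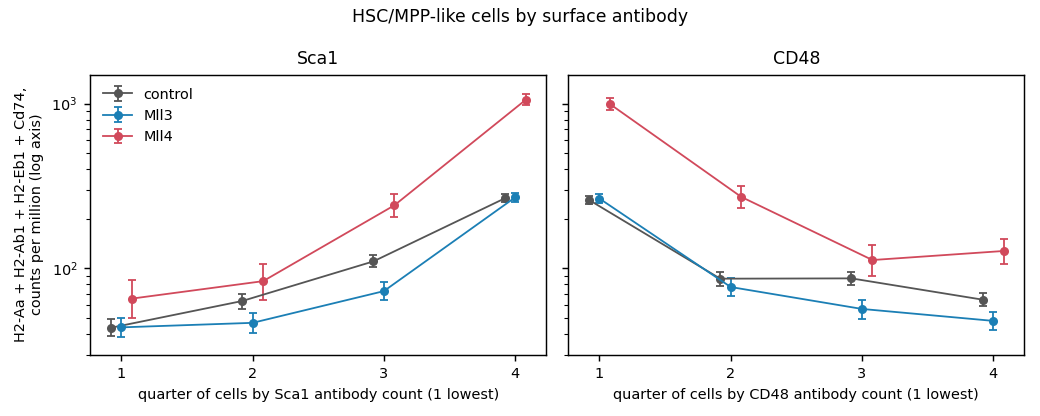
Summed CPM of H2-Aa, H2-Ab1, H2-Eb1 and Cd74 (log axis, exact Poisson intervals) in HSC/MPP-like cells of 3 libraries, in 4 equal bins by Sca1 or CD48 antibody count. The sum is highest in the top Sca1 bin and the bottom CD48 bin of each library, reaching 1052 and 993 CPM with the Mll4 label. Both hashtags are pooled.

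Free RNA from broken cells limits what low levels can show. Erythroid progenitor-like cells, used as the background for H2-Aa and Cd74 alone, held H2-Aa at 0.201 CPM in control and 3.37 CPM with the Mll4 label, and Cd74 at 0.218 and 7.45 CPM. Their H2-Ab1, at 19.4 and 28.6 CPM, and their H2-DMa, at 17.8 and 15.3 CPM, were well above those of neutrophil-like cells, at 1.75 and 5.21 CPM and at 6 and 3.99 CPM, so they give no background for these genes. None of the 1035 and 304 erythroid progenitor-like cells tested was class II high, and the exact 95% intervals reach 0.356% and 1.21%. Past 2-fold were 2 of 5 members higher and 0 lower (7.7% and 3.36% of all genes). In CPM, neutrophil-like cells stood above the erythroid level in control and near it with the Mll4 label. Their H2-Aa stood at 0.834 and 3.21 CPM and their Cd74 at 0.875 and 5.64 CPM. Of 6 members 4 were past 2-fold higher and 0 lower in them (4.67% and 4.58%). T/NK/innate lymphoid-like cells with the Mll4 label stood above the erythroid level in CPM. Their H2-Aa stood at 173 CPM in 55 cells, from 21 counts. The 50 cells of control held 1 H2-Aa count, or 3.33 CPM, too few to set against that level. Of these 55 cells 40 were too shallow to be thinned, and 2 of the other 15 were class II high, or 13.3% (1.66 to 40.5). Erythroid progenitor-like cells were also deeper, with medians of 57321.5 UMIs in control and 18046.5 with the Mll4 label. Neutrophil-like cells had 13538 and 4900. The same number of free UMIs gives a lower CPM in a deeper cell, so the erythroid CPM can be too low a background elsewhere. Whether neutrophil-like cells of control exceeded background was not tested. H2-Aa and Cd74 values of the erythroid size, or several-fold above it in shallower classes, are therefore not told apart from background.

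With the Mll4 label megakaryocyte-like cells stood above the erythroid CPM for H2-Aa but near it for Cd74. In control they stood above it for both. They were shallower, with a median of 6130 against 18046.5 UMIs with the Mll4 label. H2-Aa stood at 3.48 CPM in control and 29.9 CPM with the Mll4 label, H2-Eb1 at 3.62 and 39.4 CPM, and Cd74 at 0.975 and 8.49 CPM. Of 5 members 3 were past 2-fold higher and 0 lower (6.18% and 4.25% of all genes). The ratio of chain to Cd74 counts was 14.8 in these cells, 4.81 in erythroid progenitor-like cells and 1.68 in cluster 24, all with the Mll4 label. By hashtag, the 4 core genes stood at 32.8 and 35.7 CPM in control, and at 64.5 and 272 CPM with the Mll4 label.

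H2-DMa was lower with the Mll4 label than in control in several myeloid classes. It stood at 61.9 against 110 CPM in monocyte progenitor-like, 29.7 against 71.9 CPM in granulocyte progenitor-like and 66.2 against 140 CPM in basophil/mast-like cells. In megakaryocyte-like cells it stood at 77.4 against 86.1 CPM. H2-Aa, by comparison, stood at 2.03 against 1.22 CPM in monocyte progenitor-like and 32.3 against 3.30 CPM in basophil/mast-like cells. In the monocyte progenitor-like cells H2-Aa and H2-Eb1 together had only 14 and 11 counts. The basophil/mast-like values rested on 21 and 3 counts, in cells with medians of 2612 and 9055.5 UMIs. Whether these H2-Aa values exceeded background was not tested.

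**Figure D5:**
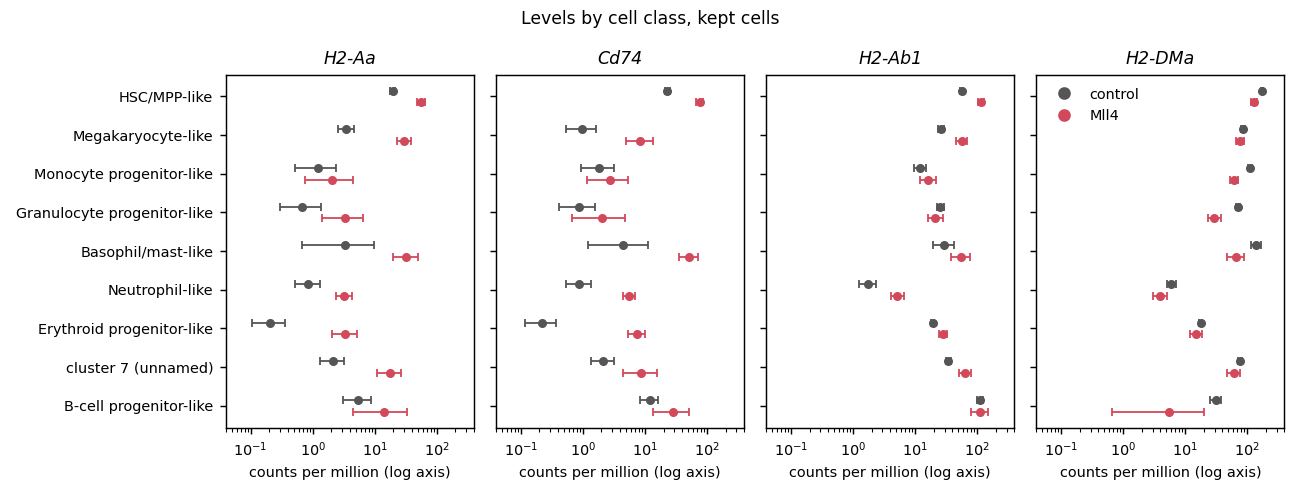
CPM (log axis, exact Poisson intervals) of H2-Aa, Cd74, H2-Ab1 and H2-DMa by cell class in control and the Mll4-labelled library. Among the classes drawn, HSC/MPP-like cells have the highest H2-Aa and H2-DMa of control (19.5 and 174 CPM), erythroid progenitor-like cells have the lowest H2-Aa and Cd74 of control, and H2-DMa with the Mll4 label lies at or below control.

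Mature B-like cells, named from markers such as Ms4a1, Igkc and Ighd, held most of the Cd74 of the Mll3-labelled library. They numbered 22 in control, 147 with the Mll3 label and 3 with the Mll4 label. They held 1248 of the 1953 Cd74 counts of the Mll3-labelled library, but 30.8% of its H2-Aa, 36.6% of its H2-Eb1 and 5.86% of its H2-Ab1 counts. In these cells Cd74 stood at 1742 CPM in control and 2707 CPM with the Mll3 label, and H2-Aa at 335 and 538 CPM.

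The H2-Ab1 of the Mll3/4-labelled library lay in B-cell progenitor-like cells, to which 6830 of its 6917 kept cells belonged. H2-Ab1 stood at 177 CPM in them and was detected in 72.8% of the cells. H2-Aa, the partner chain, stood at 1.15 CPM and was detected in 0.469%. The 468 such cells of control had H2-Ab1 at 112 CPM and H2-Aa at 5.36 CPM. Their H2-Aa rested on 17 counts and their Cd74 on 38. Their median was 4414.5 UMIs, against 57321.5 in the erythroid progenitor-like cells of control. Whether H2-Aa and Cd74 exceeded background in these control cells was not tested. Within the class the log2 difference to control was 0.67 for H2-Ab1 and 0.95 for H2-DMa, and -2.22 for H2-Aa, -2.41 for Cd74 and -1.37 for H2-DMb1. Without the class II high cells it was -3.77 for H2-Aa and -4.48 for Cd74. Those cells were chosen by these same genes, and they were 18 of 6747 with the Mll3/4 label and 0 of 438 in control. Leaving them out takes high cells from the Mll3/4-labelled side alone, so the larger difference follows from that choice. Of 6 members 0 were past 2-fold higher and 3 lower (11.8% and 12.6% of all genes). The control cells were mostly in clusters 16 and 17 and the others mostly in clusters 0, 1, 6 and 20, so the class compares different clusters.

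Other genes of the pathway were read from lists with the same 2-fold rule, in all kept cells with the Mll4 label, where 9.67% of all genes tested were higher and 8.68% lower. Of 10 loading and processing genes 3 were higher and 0 lower. They were Ctss, a protease that trims the invariant chain (22.1 against 4.81 CPM in control), March1, a ligase that removes class II from the surface (8.66 against 1.91 CPM), and the protease gene Ctsh (65.4 against 24.7 CPM). Clusters 24 and 25 held 56.1% of the Ctss counts but 18.7% of March1 and 9.24% of Ctsh. H2-DMb2, 1 of 3 further class II region genes tested, stood at 4.64 against 0.736 CPM, with 76.3% of its counts in those clusters.

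Of 7 promoter factors 0 passed 2-fold, and Rfx5, a subunit of the complex on the X box, stood at 8.79 against 8.59 CPM. Of 12 regulators upstream of Ciita 0 passed. Of 6 surface genes of antigen-presenting cells 2 were higher, Cd83 (1.86 against 0.0781 CPM) and the costimulatory ligand Cd86 (1.53 against 0.456 CPM). Of 15 MHC class I genes 1 was higher, Tap1, a subunit of the peptide transporter, at 128 against 58.8 CPM. Of 13 interferon gamma response genes 4 were higher and 0 lower (9.67% and 8.68% of all genes). They were the chemokine Cxcl9 (5.34 against 0.124 CPM) and the GTPases Iigp1 (14.1 against 4.41 CPM), Gbp2 (18.3 against 6.79 CPM) and Gbp4 (0.641 against 0.293 CPM). Outside the clusters with dendritic markers, Cxcl9 of the Mll4-labelled library stood at 0.955 CPM and Cd83 at 0.247 CPM. The kept cells of control held 1 cell of those clusters. Without doublet removal 3 of 13 interferon gamma response genes were higher with the Mll4 label and 0 lower. Then 3 of 7 surface genes and 2 of 4 further class II region genes were higher.

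The counts of interferon gamma response genes also differed between the hashtags. Of 12 tested with the Mll4 label 0 were past 2-fold in hashtag 1 cells (median log2 difference 0.19; 6.7% of all genes higher and 6.23% lower), and of 13 tested 8 were higher and 0 lower in hashtag 2 cells (median 1.45; 11.3% and 10.5%). With the Mll3/4 label 6 of 12 were higher and 1 lower in all kept cells (median 0.98; 19.8% and 19.5% of all genes), 2 of 12 higher and 1 lower with hashtag 1 (18.5% and 19.1%), and 7 of 12 higher and 2 lower with hashtag 2 (18.3% and 19.3%). Iigp1 stood at 5.07 CPM in hashtag 1 and 27.7 CPM in hashtag 2 cells, against 4.88 and 4.07 CPM in control. Gbp2 stood at 11.5 and 28.6 CPM, against 7.21 and 6.38 CPM. For both genes the hashtags of control lay close together and hashtag 2 of the Mll4-labelled library stood above all others.

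Regulators upstream of Ciita counted 0 of 12 higher with hashtag 1 and 5 of 12 with hashtag 2 (6.7% and 11.3% of all genes), and promoter factors 0 of 7 with either. Without clusters 24 and 25 the interferon list still counted 0 of 12 higher with hashtag 1 and 7 of 13 with hashtag 2 (6.61% and 10.6%). Within HSC/MPP-like cells it counted 0 of 10 higher and 1 lower with hashtag 1 (5.41% and 4.27%), and 6 of 12 higher and 0 lower with hashtag 2 (6.94% and 5.41%). Whether interferon had acted on these cells was not tested.

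Over 33 sums, each of a class in a library, H2-Aa followed H2-Eb1 (Pearson r = 0.988) and Cd74 (r = 0.971) closely and H2-DMa less (r = 0.436), on log2(CPM + 1) values. Against the mean of all members H2-Aa had the highest (r = 0.948) and H2-DMa the lowest correlation (r = 0.670). Each member is part of that mean, which raises its correlation. The sums share libraries and depth, so these are descriptions. Outside the members, the genes most alike to the mean pattern of all 7 were Rfx5 (r = 0.873), Nfkb1 (0.855), Cd180 (0.820), Aftph (0.812), Tbc1d9 (0.811), Tmem123 (0.808), Igsf9 (0.796) and Junb (0.792).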

How the data were processed

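The measurements are UMI counts of genes and antibodies per cell barcode, deposited by the authors as 1 matrix per library and made with Cell Ranger 6.1.2 on mm10, per the submitters' processing notes. Barcodes with at least 500 genes, 1000 UMIs and at most 10% mitochondrial UMIs were used. Scrublet scores were computed per library, and the highest were removed at 0.8% per 1000 barcodes, which left 25273 cells. Cells were clustered without 11 class II genes (scanpy 1.11.5, 2000 variable genes, 30 components, Leiden resolution 1, 26 clusters) and named from 153 marker genes of 17 classes. A cluster with fewer than 3 detected markers, or led by genes of other classes, stayed unnamed. CPM values and ratios come from counts summed per library and class, with exact Poisson, binomial or conditional intervals that cover counting error only. A count of 0 was set to 3 for a ratio. Hashtag positives came from a Gaussian mixture of 2 components per hashtag and library. The members, lists and rules were chosen with earlier results of these data known, and the hashtag split, the antibody bins and the promoter motifs after the data had been seen. Named genes are all members, list genes past 2-fold in the Mll4-labelled library (at most 5 per list) and the 8 genes most alike in pattern; other genes were named after their values were seen. The ratio code was tested on simulated data. Alternatives covered doublet removal, filters, resolution, seed, thinning, scaling and thresholds.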

Additional observations from a re-analysis of the deposited data

How the results depend on the processing

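No paired analysis was possible because each group has 1 library. The log2 ratio of the 4 core genes to control was 0.49 with the Mll3 label, 3.72 with the Mll4 label and 2.37 with the Mll3/4 label. In that order it became 0.018, 2.60 and 1.20 with no doublet removal, 0.097, 2.64 and 1.24 with looser cell filters, and -0.034, 2.72 and 1.28 with only cells of both hashtags removed. Without clusters 24 and 25 it was 0.35, 0.95 and 2.26, as a mean over cells 1.40, 3.99 and 1.74, and after thinning 1.43, 3.89 and 1.81. Hashtag 1 alone gave 0.55, 1.60 and 2.28, hashtag 2 alone 0.43, 4.76 and 2.47, and scaling by the median gene gave 3.64 with the Mll4 label.

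Single genes changed direction in some settings. With the Mll3 label, no doublet removal gave -0.094 for H2-Aa, -0.043 for H2-Ab1 and -0.16 for H2-Eb1, and removal of cells with both hashtags only gave -0.15, -0.10 and -0.26. Looser filters gave -0.040 for H2-Eb1, and hashtag 2 gave -0.044 for H2-Ab1. With the Mll3/4 label, H2-Eb1 and Cd74 went to -1.33 and -1.55 with no doublet removal, -1.19 and -1.38 with looser filters, -1.21 and -1.38 with only cells of both hashtags removed, -1.72 and -1.79 with hashtag 1, -1.19 and -0.96 without clusters 24 and 25, -0.45 and -0.84 as a mean over cells, and -0.27 and -0.83 after thinning. H2-DMa went to -0.0083 with hashtag 2, -0.077 as a mean over cells and -0.082 after thinning.

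Within classes the ratio of the 4 core genes with the Mll4 label was 1.52 in HSC/MPP-like cells. It was 1.3 with no doublet removal, 1.39 with another seed, 0.84 without class II high cells, 0.50 with hashtag 1 and 2.45 with hashtag 2. In megakaryocyte-like cells it was 1.97, and 2.81 with no doublet removal, 2.37 with looser filters, 1.72 at resolution 2, 1.62 with the class II genes kept in clustering, 1.75 without class II high cells, 2.66 with the erythroid level subtracted, 0.98 with hashtag 1 and 2.93 with hashtag 2. With the Mll3/4 label B-cell progenitor-like cells gave 0.47, and 0.71 and 0.28 with hashtags 1 and 2. The 92.5% of the Mll4-labelled difference that lay in clusters 24 and 25 was 90.6% with no doublet removal, 89.9% with looser filters and 87.9% with hashtag 1. The class II high share of control, 0.340%, was 0.722% with no doublet removal, 0.701% with looser filters, 0.694% with only cells of both hashtags removed, 1.39% from 2 UMIs, 0.0851% from 8 and 0.560% from 2 after thinning to 1000. With the Mll4 label it was 2.65%, and 4.19% from 2 UMIs, 2.0% from 8, and 0.573% and 5.14% with hashtags 1 and 2. At 1.5-fold the pathway lists counted 25 genes higher and 5 lower with the Mll4 label, in place of 11 and 0.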
